A study of Mus musculus with 96 samples.

Results

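The 34 genes described here code for the steps that carry pyruvate into the mitochondrion and oxidize it. They are the mitochondrial pyruvate carrier, the pyruvate dehydrogenase (PDH) complex with the kinases and phosphatases that switch it, enzymes that fill or drain the tricarboxylic acid (TCA) cycle at its side entries, and enzymes of the cycle itself. The genes were listed by symbol, with earlier results of these data known, and all 34 were found in a table of 54150 rows (54146 mouse genes and 4 transgenes). All 34 passed the count filter, which a gene passes if any group reaches it, in each of the 6 model fits.

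Pyruvate dehydrogenase commits pyruvate to acetyl-CoA. The PDH kinases phosphorylate the complex and switch it off, and the PDH phosphatases switch it on again. The TCA cycle hands its electrons to the respiratory chain as NADH and, at succinate dehydrogenase (complex II), to ubiquinone, so the cycle depends on a working chain to regenerate NAD+. Skeletal muscle is a tissue in which the PDH switch is well studied, because muscle moves between carbohydrate and fat as fuel.

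The cells were C2C12, a mouse myoblast line that fuses into myotubes when serum is lowered, and polyA RNA was measured by Smart-seq2 in 96 samples of 35 groups with 2 or 3 samples each. Proliferating myoblasts carried a lentiviral transgene induced by 300 ng/ml doxycycline: luciferase (the control), LbNOX (a bacterial NADH oxidase that forms water), mitoLbNOX (LbNOX sent to mitochondria) or NDI1 (a yeast NADH dehydrogenase that can stand in for complex I). They were treated for 10 hr with the vehicle DMSO, 0.5 µM piericidin (blocks complex I), 0.5 µM antimycin (blocks complex III) or 1 µM oligomycin (blocks ATP synthase). The control and LbNOX lines also received 20 µg/ml chloramphenicol (blocks mitochondrial translation) or DMSO for 48 hr. The study describes the medium of the chloramphenicol treatment as holding uridine and that of the inhibitors as free of it. No oligomycin samples of mitoLbNOX cells were analysed here, and of NDI1 cells DMSO and piericidin samples were used.

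Cells without a transgene were kept in low serum for 1 day (day 1 cells, given DMSO, piericidin or oligomycin) or for 4 days (myotubes), and were also treated for 10 hr. Myotubes received DMSO, the 3 inhibitors, 0.5 µM BAM15 (an uncoupler, which lets protons leak back across the inner membrane), 5% oxygen from the night before, or oligomycin combined with piericidin, BAM15 or 5% oxygen. A further set of myotubes carried an adenovirus expressing GFP, or GFP with LbNOX. All cells were grown without pyruvate in the medium, the transgenic myoblasts were stable lines that are not stated to be clones, and nothing in the labels says that samples of a group came from separate cultures, so the p-values measure the spread between these samples, which may be technical.

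Library totals were 6458295 to 15366745 estimated counts (median 10336588.5), and no pair of replicates held identical values. Levels are given as CPM, counts relative to the library total after TMM scaling over all 96 libraries, with the samples of a group in the order of their replicate numbers. Differences are log2 fold changes ± the standard error (SE) from edgeR's quasi-likelihood test, and a gene is called where its Benjamini-Hochberg adjusted p over all genes tested is under 0.05. Control myoblasts with DMSO held the proliferation markers Mki67, Top2a and Ccna2 at means of 109, 393 and 320 CPM and the muscle genes Myh3, Ckm and Myog at 0.42, 0.22 and 0.42 CPM, while myotubes with DMSO held the latter at 1984, 561 and 762 CPM. Of the markers of other cell types, the highest level in any library was 0.958 CPM for Ptprc, 0.706 for Cdh5, 0.142 for Adipoq, 0.685 for Plin1, 3.48 for Pecam1 and 6.34 for Cd68.

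The promoters of Pck2 and Pdk1 are shown as examples. Pck2 was called higher in more treatments than any other member. Pdk1 was called in opposite directions by different treatments, as were Pdk2, Pdk3, Pdp1 and some other members. Each sequence is the 250 bases before a RefSeq transcript start in GRCm38.p6, that of Pck2 at chr14:55540016-55540265 and that of Pdk1 at chr2:71872974-71873223, both on the plus strand. Capitals mark a match, on the reverse strand, to TGATGNAA, the core of the element bound by ATF4 with C/EBP proteins.
Pck2: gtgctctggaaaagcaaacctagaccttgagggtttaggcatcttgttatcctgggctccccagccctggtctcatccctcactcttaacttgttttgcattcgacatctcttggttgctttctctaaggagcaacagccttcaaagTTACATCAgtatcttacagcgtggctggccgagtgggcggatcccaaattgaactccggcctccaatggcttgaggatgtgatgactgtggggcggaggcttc
Pdk1: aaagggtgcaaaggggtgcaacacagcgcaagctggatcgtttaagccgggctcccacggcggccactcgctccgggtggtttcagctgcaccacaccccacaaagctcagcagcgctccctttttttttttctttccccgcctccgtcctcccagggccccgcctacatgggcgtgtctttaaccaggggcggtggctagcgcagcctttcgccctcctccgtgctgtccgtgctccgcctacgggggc
RefSeq promoters, taken as 250 bases before to 50 after a start, were matched for 30 of the 34 members, 40 promoters in all. TGATGNAA, searched on both strands, was present in 3.97% of all 32851 promoters and, among the members, in that of Pck2 alone. ACGTG, the core of the hypoxia response element, was present in 19.6% of all promoters and in those of 8 members, Idh3g, Ogdh, Pcx, Pdhb, Pdk2, Pdk3, Pdp2 and Sdha. It was not found in the windows of Pdk1. These matches describe letters in short windows and nothing about binding.

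Glud1, glutamate dehydrogenase, which turns glutamate into 2-oxoglutarate, was set apart from the other members by well position on a 96-well plate, read from a code in the label of each sample. The labels do not say what the plate held. In myoblasts it was at 52.3 to 210.7 CPM in the 17 libraries from outer rows and columns (median 119) and at 206 to 402 CPM in the 28 inner libraries (median 311). In myotubes the 10 outer libraries held 48.6 to 111 CPM and the 32 inner libraries 124 to 229 CPM, without overlap. All 9 day 1 libraries were outer. With the groups in the model, Glud1 was lower in outer wells by a log2 difference of -1.19 ± 0.11 (edgeR adjusted p = 9.9e-14), 1 of 141 genes among 13353 tested that differed at least 2-fold by position, while the differences of the other members lay between -0.10 and 0.18. In all, 17 of the 34 members and 2422 of the 13353 genes were called for position, among them Pdk4 (0.18 higher in outer wells, adjusted p = 0.00131) and Dld (0.10, adjusted p = 2.27e-05). In control myoblasts the 3 DMSO libraries were outer and the 3 antimycin libraries inner. The median coefficient of variation of Glud1 within groups was 38.2%, against 13.8% for the next most variable member, Pdp2. Calls of Glud1 are therefore given with and without a term for well position. Over the 39 comparisons 485 calls of members were made, of which 41 were lost with that term. At least once 197 were lost when all samples of a replicate number, or single samples in the chloramphenicol fit, were left out. Of the 195 calls with a log2 change of at least 0.5 these numbers were 7 and 25.

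**Figure D1:**
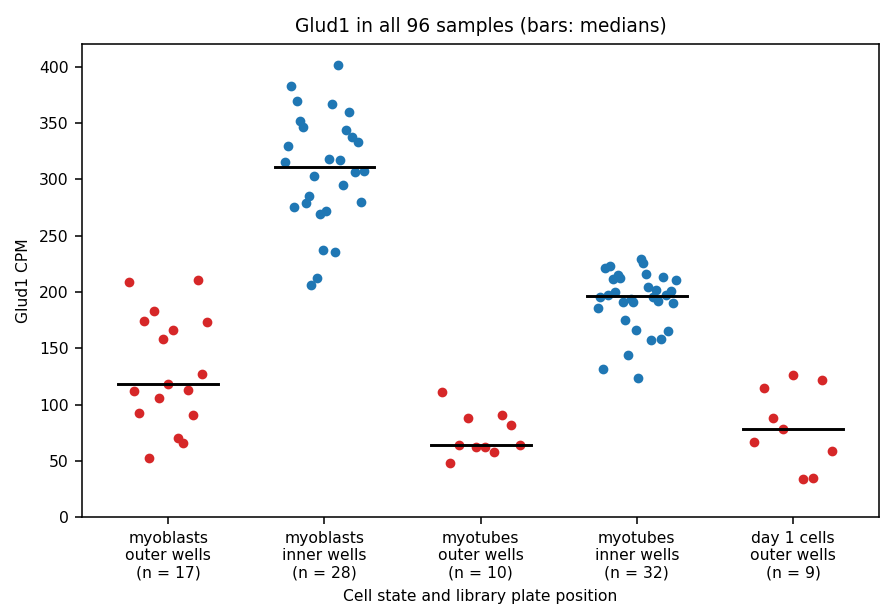
Glud1 level in CPM (vertical axis) in each of the 96 libraries (points), split by cell state and by outer or inner position on the plate (horizontal axis). Outer libraries of myotubes lie at 48.6 to 111 CPM and inner ones at 124 to 229 CPM.

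Across the 20 comparisons of a treatment with its own vehicle, several of which share vehicle samples, 17 of the 34 members stayed within 0.5 of no change on the log2 scale. These were both carrier genes, Pdha1, Pdhx and Dlat of the PDH complex, Cs, Aco1, Idh3a and Idh3g, Ogdh, Dlst, Sucla2 and Suclg1, and Sdha, Sdhb, Sdhc and Fh1. Sdha, the flavoprotein subunit of complex II, ranged from -0.07 to 0.19, and Pdha1, the catalytic subunit that the kinases phosphorylate, from -0.10 to 0.18. A log2 change of 1 or more in either direction was reached by 10 members: the 4 PDH kinases, the phosphatase Pdp1, Pck2, Dld, Idh1, Idh2 and Glud1. Glud1 reached it without the well term. With the term its changes in control myoblasts were 0.61 with piericidin, 0.55 with antimycin and 0.59 with oligomycin. How many of all genes kept within or reached these limits was not counted.

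**Figure D2:**
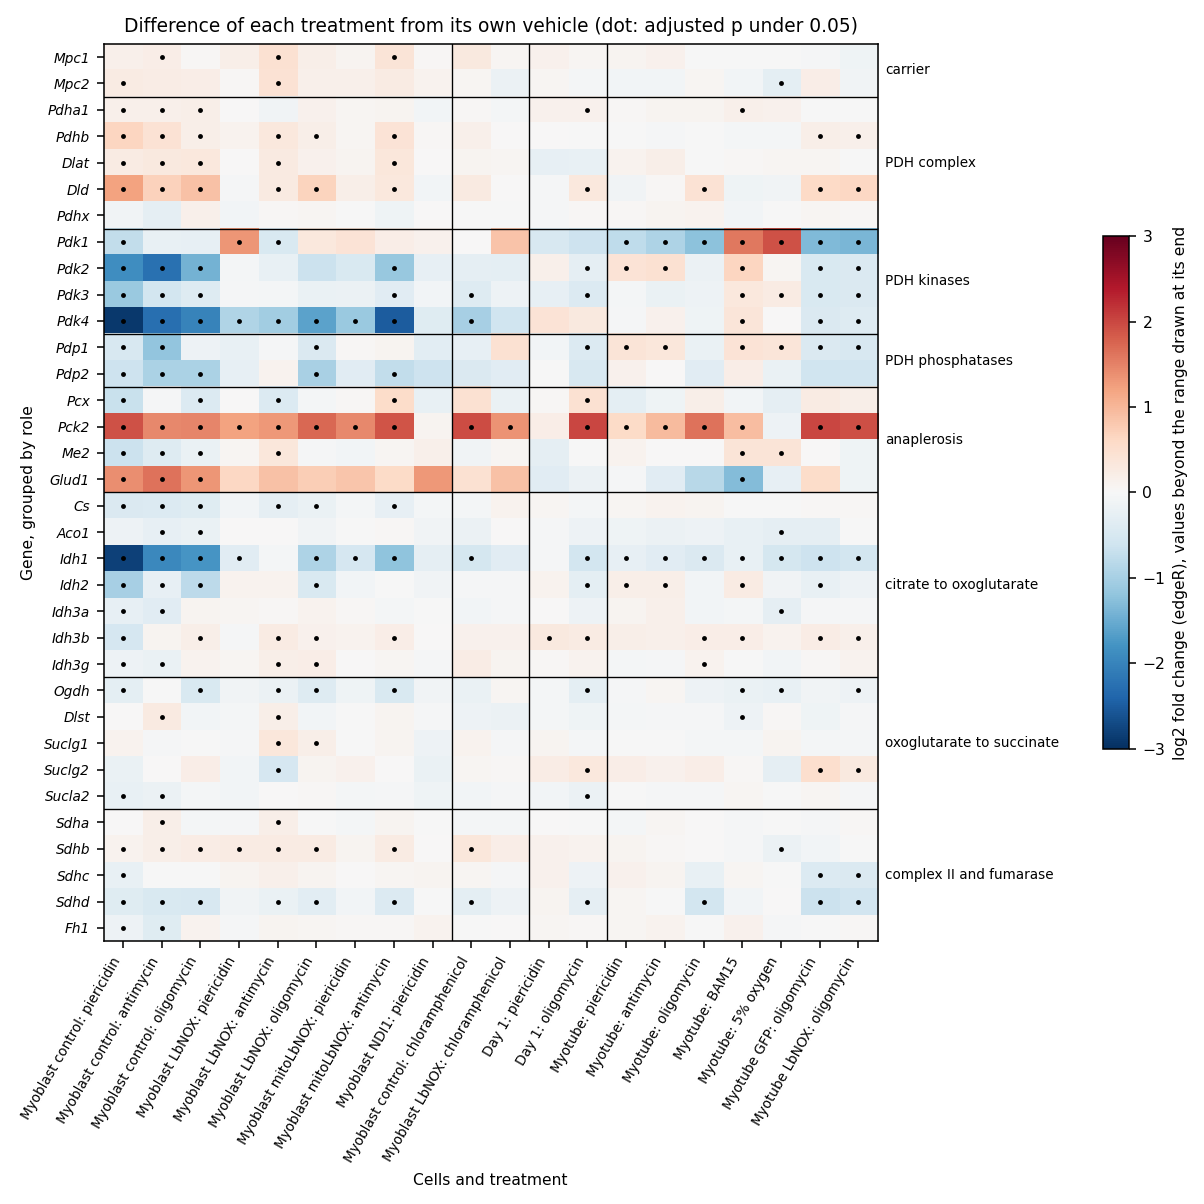
Log2 fold change (colour) of the 34 members (rows, grouped by role) in 20 comparisons of a treatment with its own vehicle (columns), with a dot where the adjusted p was under 0.05. Pck2 was called higher in 17 columns and Idh1 lower in 16, while Pdk1 was called higher in 3 and lower in 7.

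The first comparisons concern control myoblasts in which the chain was blocked at its start (piericidin), in its middle (antimycin) or at ATP synthesis (oligomycin). Pck2 and Dld rose and Idh1, Pdk2, Pdk3, Pdk4 and Pdp2 fell with each of the 3 inhibitors. With piericidin 27 members were called (8 higher, 19 lower), beside 61.7% (30.9% higher, 30.8% lower) of all genes tested, with antimycin 25 (10 higher, 15 lower), beside 63.2% (32.1% higher, 31.1% lower), and with oligomycin 20 (8 higher, 12 lower), beside 50.8% (24.5% higher, 26.3% lower). With so many genes called, the number of members called says little about them, and they are described by the size of their changes. Their median log2 fold change with piericidin was -0.20, that with antimycin -0.10 and that with oligomycin -0.04, and that of all genes -0.004, -0.0048 and -0.015.

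Pck2, the mitochondrial phosphoenolpyruvate carboxykinase, converts oxaloacetate to phosphoenolpyruvate (chromosome 14, 55540266 to 55551242, plus strand, GRCm38). It was at 96.7, 101 and 95.9 CPM with DMSO, 339, 380.2 and 363 with piericidin, 259, 255 and 271 with antimycin and 276, 273 and 255 with oligomycin. Every inhibited sample lay above every DMSO sample. The log2 fold changes were 1.92 ± 0.04 (adjusted p = 2.5e-25), 1.45 ± 0.04 (adjusted p = 2.07e-22) and 1.47 ± 0.04 (adjusted p = 2.99e-22). Of its exonic bases 53 overlap the antisense gene Gm10876, and the counting did not use strand.

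Of the PDH complex, Pdha1, Pdhb, Dlat and Dld were called higher with all 3 inhibitors and Pdhx, which anchors Dld in the complex, with none. Dld, the dihydrolipoamide dehydrogenase shared by the PDH and 2-oxoglutarate dehydrogenase complexes, was at 143, 126 and 133 CPM with DMSO, 287, 321 and 293 with piericidin, 209, 216 and 209 with antimycin and 247, 243 and 239 with oligomycin. The inhibited samples all lay above DMSO, with log2 fold changes of 1.21 ± 0.06, 0.69 ± 0.06 and 0.87 ± 0.06 (largest adjusted p = 9.53e-12). Pdhb, which pairs with Pdha1 in the first enzyme of the complex, changed by 0.63 ± 0.05, 0.44 ± 0.05 and 0.18 ± 0.05. The changes of Pdha1 were 0.15, 0.16 and 0.18, and 16.1% of its exonic bases overlap Map3k15. Of the carrier genes, Mpc2 was called with piericidin (0.25 ± 0.10) and Mpc1 with antimycin (0.21 ± 0.07), both higher, and 23.1% of the exonic bases of Mpc1 overlap 4930506C21Rik.

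Of the 4 PDH kinases, Pdk4, Pdk2 and Pdk3 were lower with all 3 inhibitors and Pdk1 with piericidin. Pdk4, the kinase known to rise in fasted muscle, was at 47.6, 44.1 and 41.4 CPM with DMSO, 6.76, 6.30 and 4.25 with piericidin, 9.46, 8.25 and 9.40 with antimycin and 11.6, 10.96 and 9.96 with oligomycin. No inhibited sample came near DMSO, and the log2 fold changes were -2.90 ± 0.18 (adjusted p = 1.83e-14), -2.26 ± 0.17 (adjusted p = 1.52e-12) and -2.01 ± 0.17 (adjusted p = 1.71e-11). Pdk2, a widely expressed kinase of the family, was low in myoblasts at 3.78, 4.59 and 5.49 CPM with DMSO, against 2.22, 0.761 and 0.743 with piericidin, 0.604, 1.11 and 1.15 with antimycin and 2.59, 1.46 and 1.03 with oligomycin. The inhibited samples lay below DMSO but varied among themselves, with log2 fold changes of -1.85 ± 0.35, -2.24 ± 0.36 and -1.41 ± 0.33 (largest adjusted p = 0.000612). Pdk2 did not pass the count filter when only the antimycin and oligomycin groups were fitted. It was thus tested through groups in which it was higher.

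Pdk3, a further kinase of the family, was at 55.6, 58.4 and 59.7 CPM with DMSO and 25.6, 26.2 and 25.9 with piericidin (log2 fold change -1.12 ± 0.10, adjusted p = 3.02e-11), and fell less with antimycin (-0.54 ± 0.10) and oligomycin (-0.38 ± 0.09). Pdk1, best known as a target of hypoxia-inducible factor, was at 6.26, 10.95 and 8.33 CPM with DMSO and 5.65, 4.89 and 4.35 with piericidin, below all DMSO samples. Its log2 fold change of -0.75 ± 0.20 was called (adjusted p = 0.00162), but without replicate 2 it was -0.53 (adjusted p = 0.0921). With antimycin (-0.21 ± 0.19) and oligomycin (-0.25 ± 0.19) Pdk1 was not called. Per kilobase of exon, Pdk3 was the most abundant kinase transcript in control myoblasts with DMSO at 22.6 ± 0.81 CPM per kb (SD, n = 3), followed by Pdk4 at 12.6 ± 0.89, Pdk2 at 1.46 ± 0.27 and Pdk1 at 1.09 ± 0.30. The means of Pdk2 and Pdk1 lay within 2 SD of each other, and the order was the same when the longest transcript gave the length.

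The phosphatases also fell. Pdp1, the calcium-stimulated form, was at 15.1, 17.3 and 16.8 CPM with DMSO and 6.54, 6.69 and 7.91 with antimycin (log2 fold change -1.18 ± 0.13, adjusted p = 1.77e-09), fell by 0.48 on the log2 scale with piericidin and was not called with oligomycin (-0.15 ± 0.12). Pdp2, the second phosphatase, was at 12.4, 11.3 and 10.99 CPM with DMSO, and its log2 fold changes were -0.62 ± 0.18, -0.95 ± 0.18 and -0.95 ± 0.18 with piericidin, antimycin and oligomycin. Without replicate 2 the first of these was -0.50 (adjusted p = 0.062).

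At the side entries, Pcx, pyruvate carboxylase, which makes oxaloacetate from pyruvate, was at 12.3, 16.5 and 12.8 CPM with DMSO, 8.53, 8.26 and 8.597 with piericidin (-0.68 ± 0.14), 9.82, 10.7 and 10.4 with oligomycin (-0.42 ± 0.14) and 13.0, 15.5 and 11.3 with antimycin (-0.03 ± 0.13, not called). Me2, the NAD-dependent malic enzyme of mitochondria, fell by 0.66, 0.38 and 0.20 on the log2 scale with piericidin, antimycin and oligomycin. Glud1 was called higher with all 3 (1.40, 1.62 and 1.33). All 3 control DMSO libraries were outer, and with the well term the log2 fold changes of Glud1 were 0.61, 0.55 and 0.59 (adjusted p = 0.114, 0.185 and 0.135).

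Among the isocitrate dehydrogenases, Idh1, the NADP-dependent enzyme of the cytosol, was at 70.5, 76.6 and 67.0 CPM with DMSO, 9.31, 11.4 and 9.23 with piericidin, 17.5, 17.9 and 19.6 with antimycin and 20.4, 22.4 and 19.5 with oligomycin. All inhibited samples lay far below DMSO, with log2 fold changes of -2.80 ± 0.10 (adjusted p = 2.55e-20), -1.92 ± 0.10 (adjusted p = 4.58e-17) and -1.76 ± 0.09 (adjusted p = 4.83e-16). Idh2, its mitochondrial counterpart, was at 141, 146 and 138 CPM with DMSO, 69.7, 70.0 and 67.0 with piericidin (-1.001 ± 0.05), 118, 121 and 108 with antimycin (-0.26 ± 0.05) and 82.9, 84.1 and 77.1 with oligomycin (-0.78 ± 0.05). The change with antimycin was the smallest of the 3. Idh3b, a subunit of the NAD-dependent enzyme, fell with piericidin (-0.51 ± 0.05), was not called with antimycin (0.07 ± 0.05) and rose with oligomycin (0.18 ± 0.05).

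Cs, citrate synthase, which opens the cycle, was at 393, 398 and 388 CPM with DMSO and fell by 0.43, 0.41 and 0.37 on the log2 scale with piericidin, antimycin and oligomycin. Ogdh, the first enzyme of the 2-oxoglutarate dehydrogenase complex, fell with piericidin (-0.30 ± 0.05) and oligomycin (-0.45 ± 0.05). Sdhd, a membrane anchor of complex II, was at 165, 175 and 158 CPM with DMSO and 115 to 140.5 CPM in the 9 inhibited samples, all lower, with log2 fold changes of -0.37 ± 0.06, -0.46 ± 0.06 and -0.48 ± 0.06.

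Of 24 other genes of the pathway 22 were tested in these myoblasts. Piericidin raised 4 and lowered 10 of them, antimycin 4 and 9, and oligomycin 3 and 8, beside 61.7%, 63.2% and 50.8% of all genes called in either direction, which these shares lie near. Among them the citrate carrier Slc25a1 was at 45.9, 62.9 and 57.4 CPM with DMSO and 21.7, 23.5 and 20.1 with piericidin (-1.31 ± 0.10). Proliferation markers were lower in the same samples: the log2 fold changes of Mki67 were -0.79, -1.07 and -0.999 and those of Top2a -0.38, -1.08 and -0.36 with piericidin, antimycin and oligomycin. Acta1, a muscle gene, was higher by 0.86, 2.44 and 0.65. Their part in the changes of the members was not tested.

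**Figure D3:**
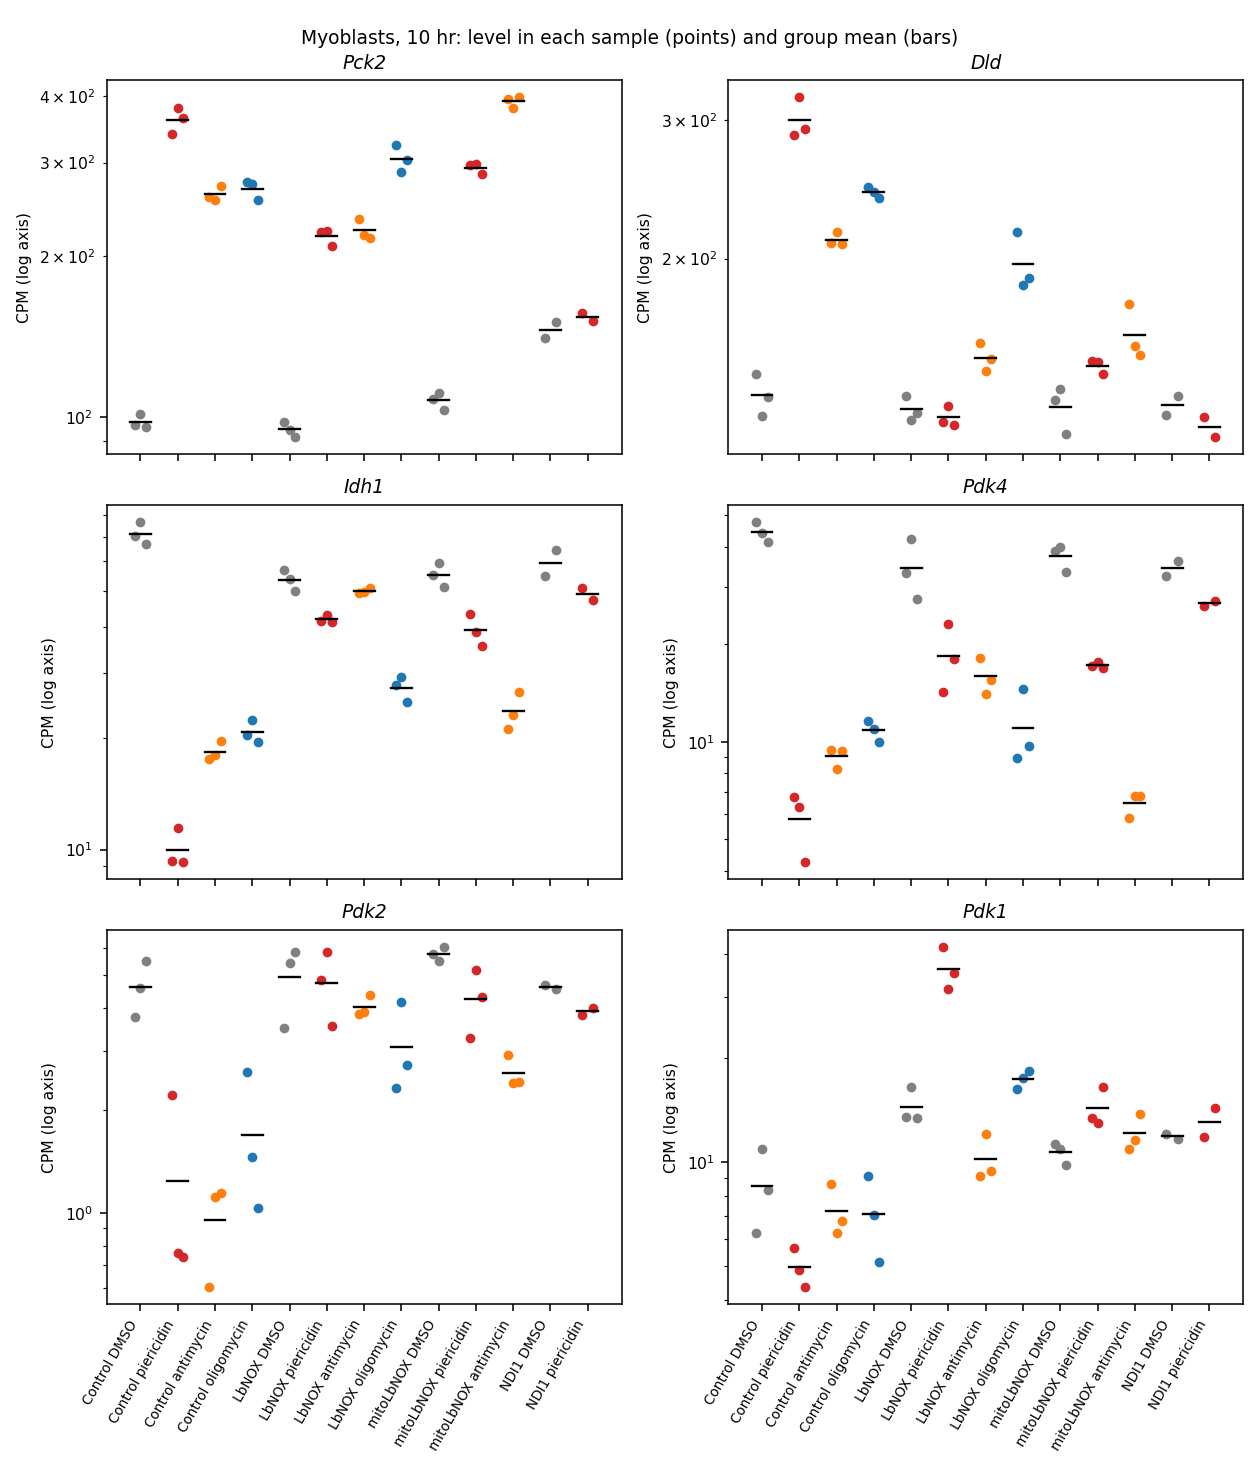
Level of 6 members in CPM (vertical, log axes) in each myoblast sample of the 10 hr treatments (points), by transgene line and treatment (horizontal axis). In control cells the inhibited samples of Pck2 and Dld lie above, and those of Idh1, Pdk4 and Pdk2 below, all DMSO samples, and Pdk1 in LbNOX cells with piericidin lies at 31.7 to 41.9 CPM.

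Antimycin and oligomycin were also compared with each other. Here 14 members were called (7 higher and 7 lower with antimycin), beside 50% (26.1% higher, 23.9% lower) of all genes. Idh2 (0.53 ± 0.05), Ogdh (0.43 ± 0.05) and Pcx (0.38 ± 0.14) were higher with antimycin. Pdp1 (-1.03 ± 0.13), Fh1, fumarase (-0.48 ± 0.06), and Idh3a (-0.41 ± 0.04) were lower. Pck2 (-0.02 ± 0.04), Idh1 (-0.16 ± 0.10) and Pdk4 (-0.25 ± 0.19) were not called.

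LbNOX, mitoLbNOX and NDI1 were used to ask which responses depend on the oxidation of NADH. With DMSO, LbNOX and control myoblasts differed in 2 members, beside 2.66% (1.29% higher, 1.37% lower) of all genes. Pdk1 was higher in LbNOX cells (13.5, 16.5 and 13.4 CPM, log2 difference 0.76 ± 0.17, adjusted p = 0.0105) and Idh1 lower (56.9, 53.8 and 50.04 CPM, -0.41 ± 0.09, adjusted p = 0.00471). When any replicate number was left out Pdk1 was not called (adjusted p = 0.143, 0.101 and 0.128), and without replicate 1 or 2 the count was 0. With piericidin 5 members were called in LbNOX cells (3 higher, 2 lower), beside 8.87% (5.01% higher, 3.87% lower), 3 in mitoLbNOX cells (1 higher, 2 lower), beside 11.2% (6.37% higher, 4.83% lower), and 0 in NDI1 cells, beside 0.00835%. In NDI1 cells, with 2 samples per group, 4 members had an unadjusted p under 0.05 in edgeR's test, and DESeq2 called 0.

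Pck2 still rose with piericidin in LbNOX cells, from 98.0, 94.6 and 91.5 CPM to 222, 223 and 209 (1.21 ± 0.04, adjusted p = 9.11e-19), and in mitoLbNOX cells, from 108, 111 and 103 to 297, 299 and 285 (1.44 ± 0.04, adjusted p = 5.73e-21). Both rises were smaller than in control cells, with interaction terms of -0.71 ± 0.06 (adjusted p = 7.46e-11) and -0.48 ± 0.06 (adjusted p = 1.81e-07). In NDI1 cells Pck2 was at 141 and 150.5 CPM with DMSO and 157 and 151 with piericidin, which was not called (0.08 ± 0.05), and the interaction was -1.84 ± 0.07 (adjusted p = 2.2e-19). The NDI1 samples with DMSO lay above the DMSO samples of the other 3 lines, a difference that was not tested.

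Idh1 and Pdk4 fell less in these lines than in control cells. Idh1 with piericidin was at 41.4, 43.0 and 41.3 CPM in LbNOX cells (-0.35 ± 0.09), 43.1, 38.8 and 35.5 in mitoLbNOX cells (-0.51 ± 0.09) and 50.8 and 47.1 in NDI1 cells (-0.28 ± 0.11, not called). Its interactions were 2.45 ± 0.14, 2.29 ± 0.14 and 2.52 ± 0.15 (largest adjusted p = 1.74e-14). Pdk4 was at 33.1, 42.3 and 27.7 CPM with DMSO and 14.3, 23.1 and 18.0 with piericidin in LbNOX cells (-0.90 ± 0.16), and at 38.8, 39.8 and 33.4 with DMSO and 17.2, 17.7 and 16.9 with piericidin in mitoLbNOX cells (-1.12 ± 0.16). In NDI1 cells it was at 32.5 and 36.1 CPM with DMSO and 26.3 and 27.2 with piericidin (-0.35 ± 0.19, not called). The interactions of Pdk4 were 2.00 ± 0.24, 1.78 ± 0.24 and 2.55 ± 0.27.

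Dld with piericidin was at 124, 129.7 and 123 CPM in LbNOX cells (-0.03 ± 0.06), 148, 148 and 142 in mitoLbNOX cells (0.17 ± 0.06) and 126 and 118 in NDI1 cells (-0.09 ± 0.07), and was called in none of them. Its interactions were -1.23 ± 0.08, -1.04 ± 0.08 and -1.30 ± 0.09 (largest adjusted p = 1.12e-11). Pdk3 was likewise not called in the 3 lines, with interactions of 1.08 ± 0.14, 0.95 ± 0.13 and 1.05 ± 0.15. The interactions of Pdk2 were 1.80 ± 0.46, 1.40 ± 0.46 and 1.62 ± 0.51, but without replicate 2 they were 1.45, 0.97 and 1.32 (adjusted p = 0.0944, 0.266 and 0.217). An interaction with piericidin was called for 18 members with LbNOX, beside 44.3% (22.3% higher, 22% lower) of all genes, 18 with mitoLbNOX, beside 42.9% (21.5% higher, 21.4% lower), and 18 with NDI1, beside 42.7% (21.2% higher, 21.5% lower).

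Pdk1 rose with piericidin in LbNOX cells. It went from 13.5, 16.5 and 13.4 CPM to 41.9, 31.7 and 35.3, with no overlap (1.33 ± 0.16, adjusted p = 8.49e-07), and its interaction was 2.08 ± 0.26 (adjusted p = 7.98e-08). It was not called in mitoLbNOX cells (11.3, 10.9 and 9.84 CPM with DMSO, 13.4, 13.0 and 16.5 with piericidin, 0.41 ± 0.17) or in NDI1 cells (12.1 and 11.7 CPM with DMSO, 11.8 and 14.4 with piericidin, 0.14 ± 0.21). Its interaction was called there too, at 1.16 ± 0.26 with mitoLbNOX (adjusted p = 0.000619) and 0.89 ± 0.29 with NDI1 (adjusted p = 0.0134), the latter 0.48 without replicate 2 (adjusted p = 0.409) and 0.85 without replicate 3 (adjusted p = 0.0548). Sdhb, the iron-sulfur subunit of complex II, was the remaining member called higher in LbNOX cells (0.24 ± 0.05), and its interaction was not called (0.13 ± 0.06).

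With antimycin 20 members were called in LbNOX cells (13 higher, 7 lower), beside 46.1% (23.3% higher, 22.9% lower), and 16 in mitoLbNOX cells (8 higher, 8 lower), beside 47.7% (24.8% higher, 22.9% lower). Idh1 was not called in LbNOX cells (49.2, 49.5 and 50.9 CPM, -0.05 ± 0.09) and fell in mitoLbNOX cells, from 55.0, 59.5 and 51.2 CPM to 21.1, 23.1 and 26.6 (-1.20 ± 0.09, adjusted p = 4.46e-12). Pdk4 fell in both, from 33.1, 42.3 and 27.7 to 18.2, 14.1 and 15.6 CPM in LbNOX cells (-1.05 ± 0.16) and from 38.8, 39.8 and 33.4 to 5.81, 6.80 and 6.78 in mitoLbNOX cells (-2.51 ± 0.18). Pdk2 fell in mitoLbNOX cells, from 5.79, 5.51 and 6.05 to 2.90, 2.41 and 2.43 CPM (-1.15 ± 0.31, adjusted p = 0.00309), and was not called in LbNOX cells (-0.23 ± 0.30). Pdk3 likewise was called in mitoLbNOX cells (-0.33 ± 0.09, with adjusted p = 0.107 without replicate 2) and not in LbNOX cells (-0.06 ± 0.09). Pdk1 was called in LbNOX cells (-0.46 ± 0.18, adjusted p = 0.0333) but not when any replicate number was left out (adjusted p = 0.0679, 0.0997 and 0.106), and was not called in mitoLbNOX cells (0.20 ± 0.18). Of the phosphatases, Pdp2 fell in mitoLbNOX cells (-0.73 ± 0.18, adjusted p = 0.00134) and was not called in LbNOX cells (0.10 ± 0.17). Pdp1 was called in neither (-0.05 ± 0.12 and 0.09 ± 0.12), with interactions of 1.14 ± 0.17 and 1.28 ± 0.17.

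Pck2 rose with antimycin by 1.30 ± 0.04 in LbNOX cells and by 1.88 ± 0.04 in mitoLbNOX cells, where it reached 395, 379 and 398 CPM. Suclg2, the GDP-forming subunit of succinyl-CoA ligase, fell in LbNOX cells (-0.51 ± 0.09) while Suclg1, the subunit shared by both forms of the ligase, rose (0.33 ± 0.06). Pcx rose in mitoLbNOX cells (0.55 ± 0.13) and fell in LbNOX cells (-0.42 ± 0.14), and without replicate 1 they were 0.39 (adjusted p = 0.0583) and -0.33 (adjusted p = 0.125). An interaction with antimycin was called for 19 members with LbNOX, beside 51.5% (24.7% higher, 26.8% lower), and 13 with mitoLbNOX, beside 31.7%.

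With oligomycin 15 members were called in LbNOX cells (7 higher, 8 lower), beside 35.2% (17.5% higher, 17.7% lower). Pck2 was at 323, 288 and 303 CPM (1.73 ± 0.04), Dld at 216, 185 and 189 (0.66 ± 0.06), Idh1 at 27.7, 29.3 and 24.98 (-0.93 ± 0.09) and Pdk4 at 8.88, 14.5 and 9.73 (-1.61 ± 0.17). Pdp2 fell, to 6.26, 4.80 and 4.49 CPM (-0.97 ± 0.18, adjusted p = 9.33e-05). Pdp1 was called lower too (-0.44 ± 0.12), but not without replicate 1 (adjusted p = 0.0767) or replicate 2 (adjusted p = 0.104). Pdk1 (0.31 ± 0.17), Pdk2 (-0.65 ± 0.31), Pdk3 (-0.20 ± 0.09) and Pcx (-0.06 ± 0.13) were not called. An interaction was called for 3 members, beside 7.98% (3.8% higher, 4.18% lower): Idh1 (0.83 ± 0.13, adjusted p = 5.85e-05), Idh2 (0.33 ± 0.08, adjusted p = 0.0058) and Pck2 (0.26 ± 0.06, adjusted p = 0.00646). Without replicate 3 the count was 1, beside 471 of 12229 genes.

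Chloramphenicol blocks mitochondrial ribosomes and so the making of the chain's mitochondrially encoded subunits. In control myoblasts 6 members were called after 48 hr (2 higher, 4 lower), beside 8.45% (4.83% higher, 3.62% lower), with 2 samples per group. Pck2 rose from 74.9 and 79.6 CPM to 291 and 291 (1.96 ± 0.07, adjusted p = 1.15e-06) and Sdhb by 0.34 ± 0.06. Pdk4 fell from 49.5 and 53.9 CPM to 25.8 and 24.2 (-1.002 ± 0.14), Idh1 from 82.7 and 94.1 to 56.8 and 61.9 (-0.53 ± 0.08), Pdk3 by 0.38 and Sdhd by 0.30 on the log2 scale. Idh1 was -0.49 without chloramphenicol replicate 1 and -0.44 without vehicle replicate 2, and its call was lost in both fits. The count was 3 without either one of the 2 control chloramphenicol samples and 2 without replicate 2 of their vehicle.

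In LbNOX myoblasts Pck2 was the only member called with chloramphenicol, beside 0.931%, from 75.7 and 87.4 CPM to 201 and 211 (1.35 ± 0.07, adjusted p = 5.7e-05). Its interaction of -0.61 ± 0.10 was also the only one called (adjusted p = 0.0385), beside 0.53%. It was not called when any one of 7 of the 8 samples was left out (adjusted p 0.108 to 0.231). Pdk1 in LbNOX cells was at 16.4 and 16.2 CPM with DMSO and 32.2 and 26.5 with chloramphenicol, which was not called (0.85 ± 0.18, adjusted p = 0.0942).

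In myotubes 6 members were called with piericidin (4 higher, 2 lower), beside 8.99% (4.15% higher, 4.84% lower) of all genes, 6 with antimycin (4 higher, 2 lower), beside 12.9% (6.64% higher, 6.27% lower), and 7 with oligomycin (4 higher, 3 lower), beside 33.3% (16.9% higher, 16.4% lower). Without replicate 1 the count with piericidin was 3 (2 higher, 1 lower), beside 533 of 12766 genes. Without replicate 3 it was 2 (1 higher, 1 lower), beside 618 of 12876. Pck2 was at 58.7, 60.3 and 66.8 CPM with DMSO, 89.5, 90.0 and 91.6 with piericidin, 116, 117 and 123 with antimycin and 202, 176 and 186 with oligomycin. The 4 groups did not overlap, and the log2 fold changes were 0.56 ± 0.07, 0.96 ± 0.07 and 1.64 ± 0.07 (largest adjusted p = 6.44e-06).

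Pdk1 fell with all 3 inhibitors in myotubes. It was at 76.0, 83.2 and 99.4 CPM with DMSO, 45.9, 50.5 and 54.0 with piericidin, 45.3, 47.0 and 41.7 with antimycin and 31.8, 33.5 and 41.8 with oligomycin. The inhibited samples all lay below DMSO, with log2 fold changes of -0.76 ± 0.08, -0.93 ± 0.08 and -1.24 ± 0.09 (largest adjusted p = 9.81e-07). Pdk2 was at 43.4, 45.8 and 46.1 CPM with DMSO and rose with piericidin (0.41 ± 0.08) and antimycin (0.45 ± 0.08), but was not called with oligomycin (-0.19 ± 0.08). Pdp1 also rose with piericidin and antimycin (0.38 ± 0.09 and 0.33 ± 0.09). Without replicate 3 only 1 member was called higher with piericidin, so that at most 1 of Pck2, Pdk2 and Pdp1 kept its call there.

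Pdk3, Pdk4, Pdp2 and Pcx were not called with any of the 3 inhibitors in myotubes, and Pdk4 differed by -0.03 ± 0.11, 0.12 ± 0.10 and -0.14 ± 0.11. Idh1 fell by 0.25, 0.35 and 0.44 on the log2 scale. With oligomycin Dld rose (0.44 ± 0.06), and Sdhd fell from 164, 148 and 156 CPM to 106, 97.9 and 106 (-0.56 ± 0.04, adjusted p = 3.27e-10), neither of them being called with piericidin or antimycin.

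BAM15 lets respiration run without making ATP, and 5% oxygen lowers the supply of its substrate. Pdk1 rose with both, to 254, 245 and 250.5 CPM with BAM15 (1.59 ± 0.08, adjusted p = 1.99e-13) and to 327, 309 and 299.8 CPM at 5% oxygen (1.90 ± 0.08, adjusted p = 4.08e-15). All 6 samples lay above all DMSO samples. Ldha, lactate dehydrogenase A, from the list of other pathway genes, had log2 fold changes of -0.69, -0.71 and -0.99 with piericidin, antimycin and oligomycin and of 0.89 and 1.32 with BAM15 and 5% oxygen. Per kilobase of exon, Pdk1 was the most abundant of the kinase transcripts at 5% oxygen, at 40.1 ± 1.77 CPM per kb (SD, n = 3), against 15.44 ± 0.80 for Pdk3, 14.4 ± 2.16 for Pdk2 and 11.02 ± 0.58 for Pdk4.

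With BAM15 14 members were called (10 higher, 4 lower), beside 25.4% (13.2% higher, 12.2% lower), and all 4 kinases were among those higher. Pdk2 was at 68.7, 69.9 and 64.7 CPM (0.65 ± 0.08) and Pdk3 at 38.3, 40.6 and 44.9 (0.31 ± 0.08). Pdk4 was at 42.5, 53.9 and 49.2 CPM against 39.9, 36.3 and 42.8 with DMSO, so that the groups overlapped (0.35 ± 0.10). Pdp1 (0.41 ± 0.09), Me2 (0.38 ± 0.09) and Pck2 (106, 120.3 and 115 CPM, 0.94 ± 0.07) rose as well. Glud1 was lower (-1.30), with 2 of 3 BAM15 libraries and 0 of 3 DMSO libraries in outer wells. With the well term the difference was -0.62 and still called (adjusted p = 0.0101), and without replicate 2 it was -1.01 and not called (adjusted p = 0.276). The count with BAM15 was 7 without replicate 2, beside 1388 of 12795 genes, and 9 without replicate 3, beside 2244 of 12876.

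At 5% oxygen 10 members were called (4 higher, 6 lower), beside 22.1% (12.3% higher, 9.78% lower). Without replicate 1 there were 4 (1 higher, 3 lower), beside 1810 of 12766 genes, so that at most 1 of the rises was still called. Pdk3 (0.24 ± 0.09), Pdp1 (0.36 ± 0.09) and Me2 (0.39 ± 0.09) rose beside Pdk1. Idh1 fell to 81.2, 76.6 and 79.9 CPM from 118, 115 and 123 (-0.53 ± 0.06), and Pck2 at 54.8, 58.0 and 49.6 CPM was not called (-0.15 ± 0.07). The proliferation markers Mki67, Top2a and Ccna2 were lower at 5% oxygen by log2 differences of -2.61, -2.30 and -3.19, and their part in the result was not tested.

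Oligomycin was then combined with piericidin, BAM15 or 5% oxygen, and each combination was compared with oligomycin alone. Pdk1 was at 229, 243 and 222 CPM with BAM15 added (2.72 ± 0.09), 235, 243 and 218 at 5% oxygen (2.72 ± 0.09) and 42.1, 43.3 and 45.3 with piericidin added (0.29 ± 0.09, adjusted p = 0.0204). Samples with BAM15 or 5% oxygen thus lay above even the DMSO samples, while those with piericidin lay below them. Pck2 fell to 66.8, 72.5 and 73.3 CPM at 5% oxygen (-1.39 ± 0.07, adjusted p = 6.06e-14), to 112, 129.5 and 123 with piericidin (-0.63 ± 0.07) and to 148, 175 and 156 with BAM15 (-0.21 ± 0.07, adjusted p = 0.0233).

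Of the other regulators, Pdk2 was higher in all 3 combinations (0.50 ± 0.08 with piericidin, 0.61 ± 0.08 with BAM15 and 0.30 ± 0.08 at 5% oxygen), as was Pdp1 (0.51 ± 0.09, 0.40 ± 0.09 and 0.43 ± 0.09). Pdk3 was higher with BAM15 (0.33 ± 0.09) and 5% oxygen (0.43 ± 0.09). Without replicate 2 the call of Pdk2 at 5% oxygen was lost (adjusted p = 0.108), and without replicate 1 that of Pdk3 with BAM15 (adjusted p = 0.175).

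Of the other members called with oligomycin in myotubes, Dld, Sdhd and Idh3g were called in all 3 combinations and Idh3b with 5% oxygen (-0.16 ± 0.06). Idh3g was lower with piericidin (-0.16 ± 0.04), BAM15 (-0.17 ± 0.04) and 5% oxygen (-0.27 ± 0.04). Idh1 was called with piericidin (0.30 ± 0.06) but not with BAM15 (0.01 ± 0.06) or 5% oxygen (0.10 ± 0.06). Dld fell with piericidin (-0.47 ± 0.06), BAM15 (-0.53 ± 0.06) and 5% oxygen (-0.46 ± 0.06). Sdhd rose with all 3 (0.49 ± 0.04, 0.36 ± 0.04 and 0.50 ± 0.04), to 144, 145 and 145 CPM with piericidin. In all, 9 members were called with piericidin (6 higher, 3 lower), beside 20.9% (8.46% higher, 12.4% lower), 12 with BAM15 (6 higher, 6 lower), beside 26.1% (12% higher, 14.1% lower), and 12 with 5% oxygen (6 higher, 6 lower), beside 33.3% (16.7% higher, 16.5% lower). Without replicate 1 the count with BAM15 was 6, beside 2254 of 12766 genes.

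**Figure D4:**
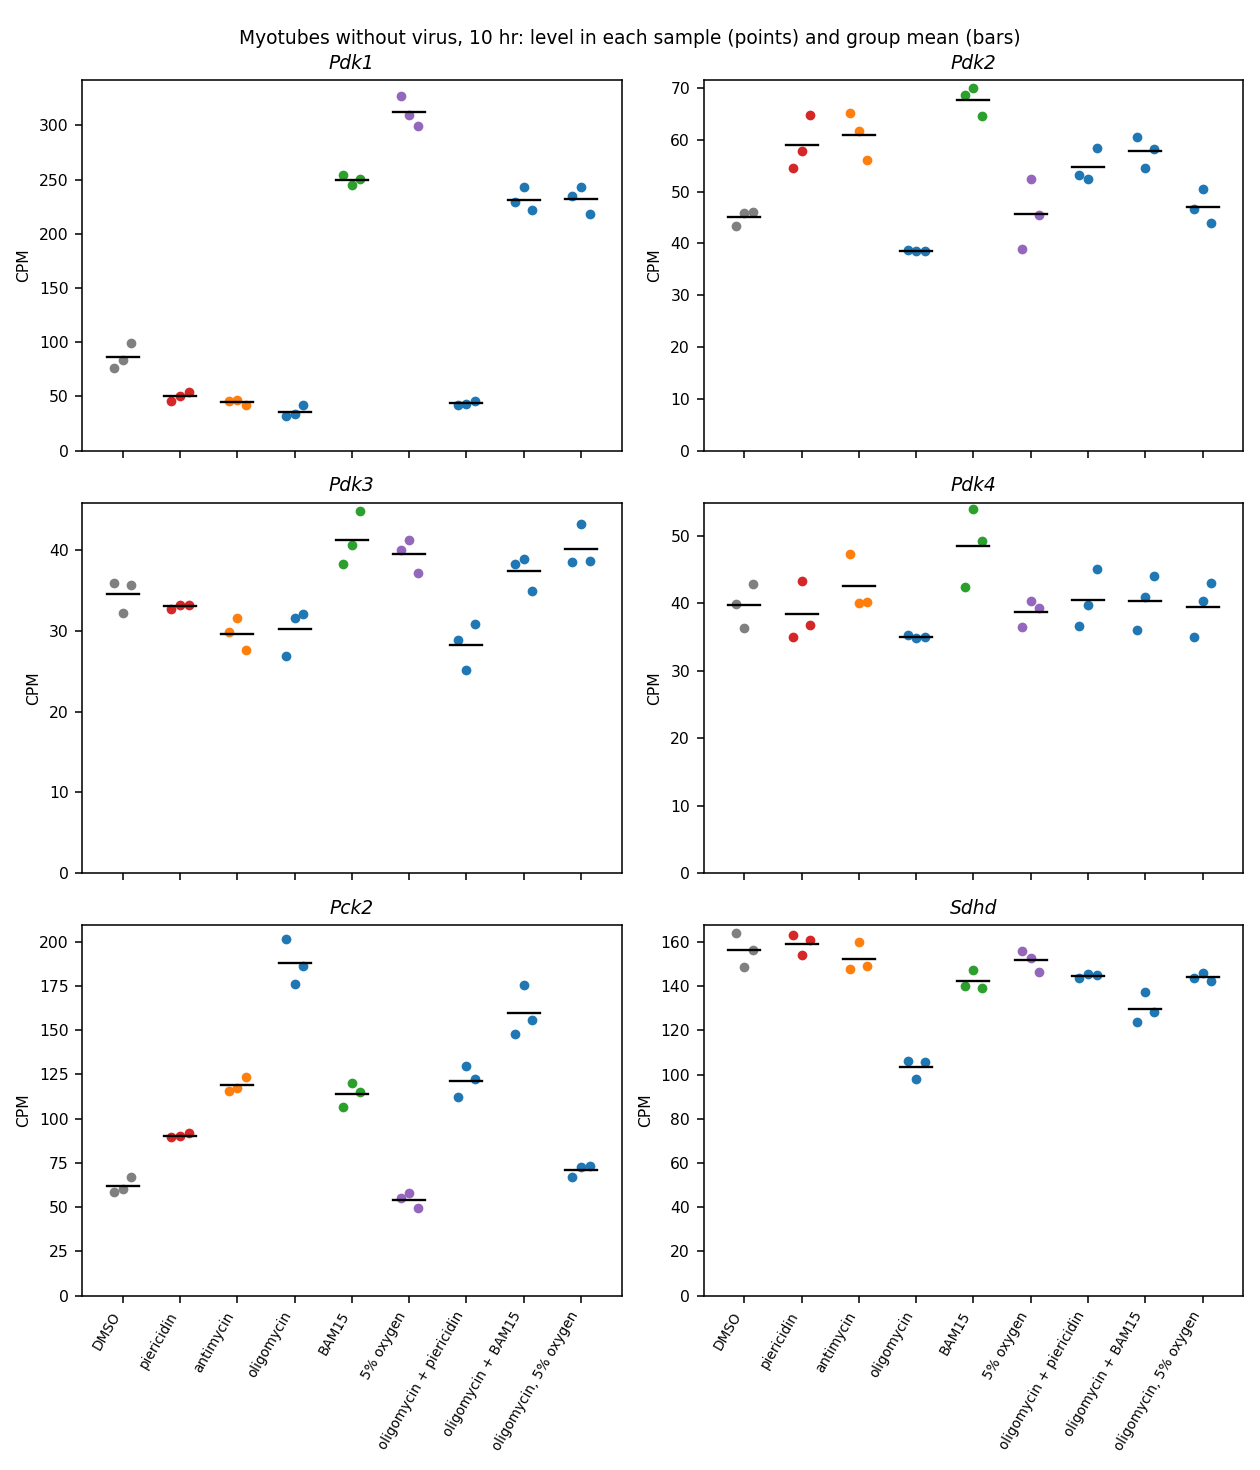
Level of 6 members in CPM (vertical axes, from 0) in each sample of myotubes without adenovirus (points), by treatment (horizontal axis). Pdk1 lies at 218 to 327 CPM in the samples with BAM15 or 5% oxygen and at 31.8 to 99.4 CPM in the others.

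In myotubes with an adenovirus, oligomycin was compared with DMSO for GFP alone and for LbNOX. With GFP 14 members were called (5 higher, 9 lower), beside 25.8% (14% higher, 11.8% lower), and 6 without replicate 1, which leaves 1 sample in each GFP group. With LbNOX 14 were called (5 higher, 9 lower), beside 31.8% (17.2% higher, 14.5% lower). Pck2 rose from 42.2 and 45.6 CPM to 177 and 176 with GFP (2.00 ± 0.07) and from 44.4, 45.5 and 42.5 to 172, 166 and 163 with LbNOX (1.93 ± 0.06). Pdk1 fell from 103 and 128 CPM to 45.3 and 46.5 with GFP (-1.33 ± 0.11) and from 153, 168 and 139 to 64.2, 54.2 and 57.7 with LbNOX (-1.37 ± 0.09). No treated sample of either gene overlapped its vehicle.

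All 4 kinases and Pdp1 were called lower in both sets of adenovirus myotubes. With GFP and with LbNOX the values were -0.45 ± 0.08 and -0.44 ± 0.06 for Pdk2, -0.46 ± 0.10 and -0.44 ± 0.08 for Pdk3, -0.43 ± 0.11 and -0.38 ± 0.09 for Pdk4, and -0.43 ± 0.09 and -0.49 ± 0.07 for Pdp1. With GFP each of these 4 calls was lost in at least 1 of the fits without a replicate (adjusted p = 0.0784 for Pdk2 and 0.217 for Pdk4 without replicate 1, and 0.249 for Pdk3 without replicate 2). Dld rose (0.59 ± 0.06 and 0.63 ± 0.05) and Idh1 fell (-0.62 ± 0.09 and -0.56 ± 0.07). Also called lower in both were Sdhd (-0.63 ± 0.07 with GFP, -0.58 ± 0.06 with LbNOX) and Sdhc (-0.41 ± 0.07 and -0.43 ± 0.06). An interaction of LbNOX with oligomycin was called for 0 members, beside 0% of all genes, and DESeq2 called 0, with 1 member at an unadjusted p under 0.05 in edgeR's test. The interaction was -0.07 ± 0.09 for Pck2 and -0.04 ± 0.14 for Pdk1. With piericidin, for which no test was set, Pck2 was at 72.3 and 69.7 CPM with GFP and 56.3, 57.4 and 52.6 with LbNOX, and Pdk1 was at 49.1 and 55.5 CPM with GFP and 71.5, 71.3 and 71.7 with LbNOX.

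In day 1 cells, which the labels call largely post-mitotic, piericidin gave 1 called member, beside 2.75%, Idh3b (0.28 ± 0.06, adjusted p = 0.0401), and 0 when any replicate number was left out, where over all genes 25, 32 and 47 were called of 12071, 12069 and 12056 tested. Pck2 was at 75.8, 69.6 and 77.6 CPM with DMSO and 90.5, 84.2 and 82.0 with piericidin, all higher but not called (0.20 ± 0.06, adjusted p = 0.141). With oligomycin 14 members were called (6 higher, 8 lower), beside 20.7% (10.6% higher, 10.1% lower). Without replicate 1, 2 and 3 there were 7 (2 higher), 8 (4 higher) and 6 (1 higher), beside 1379 of 12071, 1425 of 12069 and 1423 of 12056 genes. At most 1 of the rises was thus still called without replicate 3. Pck2 rose to 314, 286 and 290.1 CPM (2.00 ± 0.06, adjusted p = 2.76e-09), Pcx by 0.46 ± 0.10 and Dld by 0.31 ± 0.07, and Idh1 fell from 134, 121 and 135 CPM to 83.4, 82.3 and 99.5 (-0.55 ± 0.08). Pdk2 (-0.26 ± 0.08), Pdk3 (-0.42 ± 0.09) and Pdp1 (-0.42 ± 0.09) were called lower, each losing its call in at least 1 fit without a replicate, where the largest adjusted p was 0.262 for Pdk2, 0.0646 for Pdk3 and 0.085 for Pdp1. Pdk1 was at 26.5, 26.0 and 29.7 CPM with DMSO, 11.9, 28.9 and 18.7 with piericidin and 16.6, 27.4 and 9.40 with oligomycin, varied widely between treated samples and was not called.

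Finally, the 3 states were compared with DMSO. The myoblasts carry luciferase and received doxycycline and more serum (fetal bovine rather than horse), so that differentiation cannot be told apart from these. Plate position was split as well. The 3 myoblast and 3 day 1 libraries with DMSO were outer and the 3 myotube libraries inner. Between myotubes and myoblasts 28 members differed (17 higher in myotubes, 11 lower), beside 69.4% (35.7% higher, 33.7% lower) of all genes, and between day 1 cells and myoblasts 26 (13 higher in day 1 cells, 13 lower), beside 63.6% (31.3% higher, 32.3% lower). The median log2 difference of the members was 0.15 in myotubes and 0.07 in day 1 cells, against 0.039 and -0.0015 for all genes.

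The regulators of PDH were among the members that differed most. Pdk1 was at 6.26 to 10.95 CPM in myoblasts, 26.0 to 29.7 in day 1 cells and 76.0 to 99.4 in myotubes, with a log2 difference of 3.32 ± 0.26 between myotubes and myoblasts (adjusted p = 4.58e-12) of 1.66 ± 0.27 between day 1 cells and myoblasts and of 1.66 ± 0.24 between myotubes and day 1 cells. Pdk2 was at 3.78 to 5.49, 31.6 to 33.4 and 43.4 to 46.1 CPM, and its difference from myoblasts was 2.79 ± 0.16 on day 1 and 3.28 ± 0.16 in myotubes. None of these groups overlapped. Pdp1 was higher by 1.58 ± 0.11 in myotubes and 1.64 ± 0.11 in day 1 cells. Pdk3 was lower in both (-0.74 ± 0.09 and -0.69 ± 0.09), as was Pdp2 (-0.46 ± 0.20 and -0.64 ± 0.20), and Pdk4 was lower in day 1 cells (-0.74 ± 0.11) but not called in myotubes (-0.16 ± 0.10). The Pdp2 difference was not called without replicate 1 in either comparison (-0.33 with adjusted p = 0.291 in myotubes and -0.62 with adjusted p = 0.0564 in day 1 cells, edgeR), and in myotubes also not without replicate 3 (adjusted p = 0.112), with the well term (adjusted p = 0.0988) or with no count filter (adjusted p = 0.0989).

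The side entries differed in both directions. Pcx was at 12.3 to 16.5 CPM in myoblasts, 34.9 to 38.4 on day 1 and 47.0 to 56.4 in myotubes (1.93 ± 0.11 against myoblasts, adjusted p = 3.03e-15, and 1.36 ± 0.11 for day 1 cells against myoblasts). Me2 was at 107, 113 and 109 CPM in myoblasts, 26.7, 28.1 and 27.5 on day 1 and 36.2, 42.7 and 37.3 in myotubes (-1.499 ± 0.10 in myotubes and -2.01 ± 0.10 on day 1, against myoblasts). Pck2 was lower in myotubes (-0.66 ± 0.06) and in day 1 cells (-0.41 ± 0.06). In the cycle the alternative subunits of succinyl-CoA ligase parted: Suclg2, the GDP-forming one, was lower in myotubes (-1.20 ± 0.11), and Sucla2, the ADP-forming one, was higher (0.47 ± 0.05).

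Idh3a was lower (-0.75 ± 0.05, and -1.07 ± 0.05 in day 1 cells) and Idh1 higher (0.73 ± 0.08) in myotubes, and Pdhb (0.64 ± 0.05), Mpc2 (0.58 ± 0.08) and Pdhx (0.53 ± 0.13) were higher. Between myotubes and day 1 cells 17 members differed (15 higher in myotubes, 2 lower), beside 35.6% (19.6% higher, 16% lower). Without replicate 1, 2 and 3 there were 11, 9 and 11, beside 3191 of 13035, 3428 of 12975 and 3357 of 13120 genes. Among the 17, Glud1 was higher by 1.23 (edgeR adjusted p = 0.0317) but by 0.28 with the well term (adjusted p = 0.727), the day 1 libraries being outer and the myotube DMSO libraries inner. Of the other pathway genes 23 were tested between myotubes and myoblasts, of which 9 were higher and 7 lower, beside 69.4% of all genes called.

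**Figure D5:**
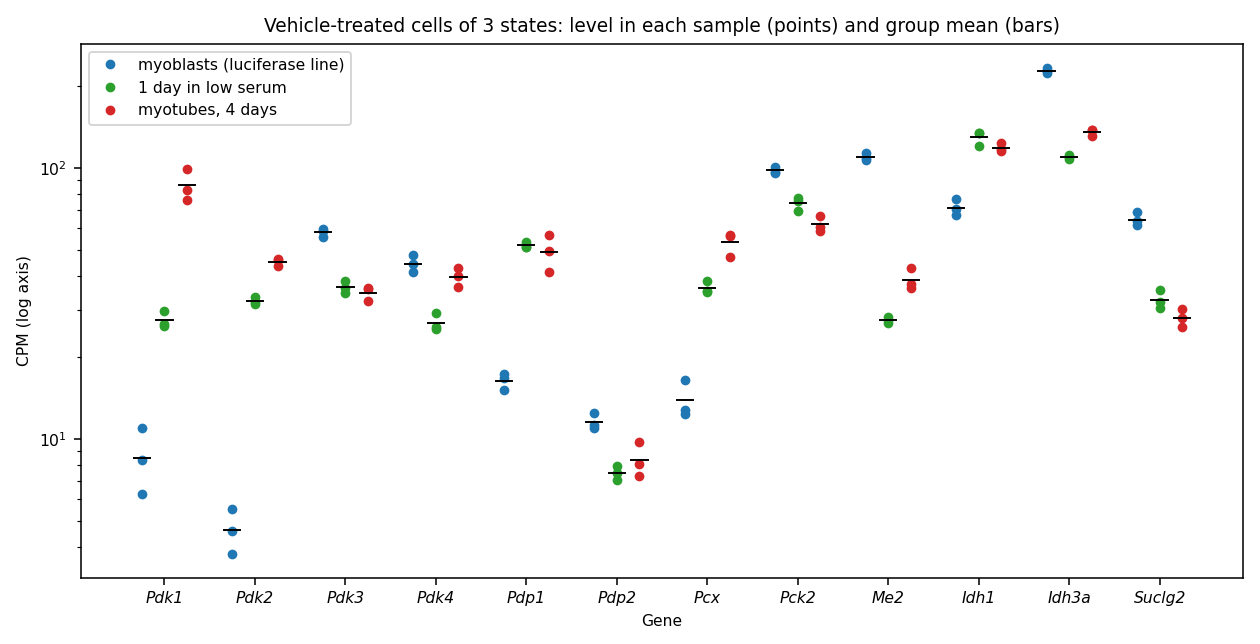
Level of 12 members in CPM (vertical, log axis) in each DMSO sample of control myoblasts, day 1 cells and myotubes (points). Pdk1, Pdk2, Pdp1 and Pcx are lowest in myoblasts, and Me2, Suclg2 and Idh3a are highest there.

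The response to an inhibitor was compared between myotubes and control myoblasts by an interaction term. It was called for 21 members with piericidin (18 higher, 3 lower), beside 46.5% (25.2% higher, 21.3% lower), for 19 with antimycin (14 higher, 5 lower), beside 47.9% (25.4% higher, 22.5% lower), and for 11 with oligomycin (7 higher, 4 lower), beside 29% (15.8% higher, 13.2% lower). Pdk4 had interactions of 2.92 ± 0.17, 2.42 ± 0.16 and 1.87 ± 0.16 and Idh1 of 2.59 ± 0.12, 1.62 ± 0.11 and 1.32 ± 0.11 (largest adjusted p of the 6 = 3.71e-10). Pdk2 had 2.31 ± 0.29, 2.74 ± 0.31 and 1.21 ± 0.27, the last of which was 1.10 without replicate 2 (adjusted p = 0.0574) and 0.89 without replicate 3 (adjusted p = 0.0645).

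Pck2 rose less in myotubes with piericidin (-1.31 ± 0.08, adjusted p = 1.5e-13) and antimycin (-0.45 ± 0.08), and its interaction with oligomycin was not called (0.17 ± 0.08). Dld had interactions of -1.26 ± 0.08, -0.62 ± 0.08 and -0.43 ± 0.08. Pdk1 was not called for any inhibitor (0.04 ± 0.39, -0.67 ± 0.39 and -0.99 ± 0.38). With the well term the count for oligomycin was 6, beside 2316 of 12765 genes. Without replicate 1 or 2 it was 7, beside 2382 of 13035 and 2494 of 12975.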

How the data were processed

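PolyA RNA of 96 C2C12 samples was analysed. The authors deposited estimated counts per gene: reads demultiplexed with bcl2fastq 2.20.0.422 were quantified with kallisto 0.44 against mouse transcripts (mm10 in the submitters' processing notes) plus the transgenes, summed to genes and over flow cells, without use of strand. These expected counts were whole numbers as deposited.

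Groups were taken from the sample labels. The 4 transgenes were left out. A gene entered a fit if some group had 16 or more counts in each of its samples. Tests used edgeR 4.0.16 (TMM scaling, quasi-likelihood F test, R 4.3.3, limma 3.58.1) in 6 fits and 39 comparisons. Within each comparison p-values were adjusted by Benjamini-Hochberg over all genes tested, and not across comparisons. The SE was derived from the fold change and F. Scripts were tested on simulated data. One transcript, CT010467.1, took 24.2 to 31.1% of counts. Depth limits precision most for low transcripts. Alternatives were DESeq2 1.42.0 size factors and Wald test, no filter, a replicate block, a well term and fits of only the groups compared. Samples were also left out by replicate number, or singly in the chloramphenicol fit. Promoter sequences came from RefSeq (GRCm38.p6) and positions from GENCODE. Members were named by rule from the called ones with the largest log2 change (up to 6 per direction and comparison), the PDH kinases and phosphatases, Pck2 and Pcx. Not all values that the rule allows are printed, small changes and interactions least often, and other members serve as examples of their role. The members and lists were chosen with earlier results of these data known. Figures were drawn with matplotlib 3.10.9.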

Additional observations from a re-analysis of the deposited data

Results flagged for a closer look

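The results below were picked out because the effect of an inhibitor differed between cell lines or between cell states by a test of the difference itself, the interaction term of edgeR's quasi-likelihood fit, with an adjusted p under 0.05. A positive value means a higher log2 fold change in the line or state named than in control myoblasts. Counts of members are given first and then each member whose interaction reached 1 on the log2 scale in either direction. No group has 4 or more samples, so no sample was tested against the rest of its group.

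For piericidin, 18 of 34 members were called with LbNOX (beside 44.3% of all genes tested), 18 with mitoLbNOX (42.9%) and 18 with NDI1 (42.7%). With LbNOX they included Idh1 (2.45), Pdk1 (2.08), Pdk4 (2.00), Pdk2 (1.80), Idh2 (1.10), Pdk3 (1.08) and Dld (-1.23). With mitoLbNOX the values were 2.29 for Idh1, 1.78 for Pdk4, 1.40 for Pdk2, 1.16 for Pdk1 and -1.04 for Dld. With NDI1 they were 2.55 for Pdk4, 2.52 for Idh1, 1.62 for Pdk2, 1.05 for Pdk3, -1.30 for Dld and -1.84 for Pck2. Pdk2 was not called without replicate 2 in any of the 3 lines, and without replicate 3 not with mitoLbNOX or NDI1.

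For antimycin, 19 members were called with LbNOX (beside 51.5% of all genes) and 13 with mitoLbNOX (31.7%). LbNOX values were 2.00 for Pdk2, 1.88 for Idh1, 1.21 for Pdk4, 1.14 for Pdp1 and 1.05 for Pdp2, the last of which was 0.88 without replicate 1 (adjusted p = 0.0506). With mitoLbNOX Pdp1 had 1.28. The count was 3 for LbNOX with oligomycin (beside 7.98%) and 1 for LbNOX with chloramphenicol (Pck2, beside 0.53%).

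Between myotubes and control myoblasts, 21 members were called with piericidin (beside 46.5% of all genes): Pdk4 (2.92), Idh1 (2.59), Pdk2 (2.31), Idh2 (1.22), Pdk3 (1.12), Dld (-1.26) and Pck2 (-1.31) reached the size given above. With antimycin 19 were called (beside 47.9%), among them Pdk2 (2.74), Pdk4 (2.42), Idh1 (1.62), Pdp1 (1.56), Pdp2 (1.004) and Glud1 (-1.91). With oligomycin 11 were called (beside 29%), among them Pdk4 (1.87), Idh1 (1.32), Pdk2 (1.21) and Glud1 (-2.15). With the well term Glud1 was -0.68 for antimycin (adjusted p = 0.427) and -1.001 for oligomycin (adjusted p = 0.292), and Pdp2 for antimycin was 0.64 without replicate 1 (adjusted p = 0.211).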

How the results depend on the processing

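Of the 39 counts of members called, 16 moved by more than 1.5 times under some alternative, 9 of them only when samples were left out, and no result changed direction. Without the count filter the count was 1 rather than 0 for piericidin in NDI1 myoblasts, 4 rather than 1 for chloramphenicol in LbNOX myoblasts, 2 rather than 1 for its interaction, 1 rather than 0 for LbNOX with oligomycin in adenovirus myotubes and 4 rather than 1 for piericidin in day 1 cells. Calls over all genes moved too, to 538 of 40792, 694 of 33174, 440 of 33174, 199 of 38266 and 613 of 36990 in these comparisons. By DESeq2's Wald test it was 3 for chloramphenicol in LbNOX myoblasts and 2 for piericidin in day 1 cells. Fitting only the groups compared gave 1 rather than 2 for LbNOX against control with DMSO, and the well term gave 6 rather than 11 for myotube state with oligomycin. The well term could not be fitted for day 1 cells, whose libraries are all outer.

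Leaving out samples gave 0 to 1 for LbNOX against control with DMSO (2 in full), 1 to 2 for LbNOX with oligomycin (3), 2 to 6 for chloramphenicol in control myoblasts (6), 1 to 2 in LbNOX myoblasts (1) and 0 to 1 for the interaction (1). In myotubes it gave 2 to 5 for piericidin (6), 4 to 8 for 5% oxygen (10), 7 to 12 for BAM15 (14), 6 to 11 for BAM15 added to oligomycin (12) and 6 to 13 for oligomycin with GFP (14). In day 1 cells it gave 0 for piericidin (1) and 6 to 8 for oligomycin (14), and it gave 7 to 8 for myotube state with oligomycin (11) and 9 to 11 for myotubes against day 1 cells (17). A group left with 1 sample was assumed to vary like the others. Calls over all genes fell as well. Without replicate 1 they were 533 of 12766 for piericidin in myotubes, 1810 of 12766 for 5% oxygen and 2254 of 12766 for BAM15 added to oligomycin. For BAM15 without replicate 2 they were 1388 of 12795.

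Of 485 called results of single members, 14 lost their call with DESeq2's size factors, 24 with its Wald test, 108 without the filter, 53 with only the groups compared, 41 with the well term, 10 with a replicate block and 197 at least once when samples were left out. A log2 change of at least 0.5 was seen in 195. Of these 195, 0 lost their call with DESeq2's size factors, 0 with its Wald test, 3 without the filter, 2 with only the groups compared, 7 with the well term (Glud1 in 6 comparisons and Pcx for myotube state with oligomycin) and 25 when samples were left out. With a replicate block 1 of the 195 was lost, Pck2 for LbNOX with chloramphenicol, and the count was 0 rather than 1 for that interaction and for piericidin in day 1 cells. The mean correlation of same-numbered samples was -0.04 to 0.05 over the 6 fits. In the largest fit it was 0.034, against -0.017 for samples of different numbers. There 19 of 37 samples correlated best with their own number. Whether the replicate numbers mark a pairing was not settled. With 2 or 3 samples a group, small changes and those of low transcripts such as Pdk2 in myoblasts are uncertain.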
